A study of Mus musculus with 9 samples.

Results

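Integrins are the cell surface receptors through which leukocytes and microglia hold on to vessel walls, to extracellular matrix and to each other. The integrin chains of microglia and infiltrating cells described here are 10 genes, listed by symbol: the alpha chains Itgam, Itgal, Itga4, Itga6 and Itga9 and the beta chains Itgb1, Itgb2, Itgb3, Itgb5 and Itgb7. All 10 were found among the 53801 genes of the count table, and all 10 are among the 12538 protein-coding genes that passed the low-count filter. The data are bulk RNA-seq counts of cells sorted as CD11b+ out of the brain hemispheres that bore a GL261 glioma, in male C57BL/6J mice that were 10 to 12 weeks old when the study began. GL261 is a mouse glioma line, here expressing luciferase and tdTomato and implanted into the striatum. The 2 control (CTR) libraries come from vehicle-treated mice. The 2 OAT-1746 libraries come from mice given the oral arginase inhibitor OAT-1746 at 50 mg/kg per dose. The 2 anti-PD-1 libraries come from mice given 2.5 mg/kg of an antibody against the checkpoint receptor PD-1 into the peritoneum on days 8, 10, 12 and 14. The 3 COMB libraries come from mice given both agents. Brains were collected on day 28 by the study's methods text and on day 21 by a legend. For anti-PD-1 replicate 2 the label names PD-2 as the target, and the library was grouped by its title. The study calls the replicates biological, and whether a library holds 1 animal or pooled animals is not given in the sources used here.

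Total counts were 17490386 and 17729568 in the CTR libraries, 17380045 and 16784406 in the OAT-1746 libraries, 14356928 and 18796479 in the anti-PD-1 libraries and 13048075, 16144518 and 14806017 in the COMB libraries. At this depth every integrin gene was read well above the floor: the lowest count of any of the 10 in any library was 535, for Itgb3, which has a Poisson error of 4.32%. That error covers counting only, and replicates of a group differed by more than counting error, with a chi-square per gene of 7.84 to 91.2 where counting error alone gives about 1. 1 library stands apart from the rest. In OAT-1746 replicate 2 the median gene lay 0.47 log2 units from its own median over the 9 libraries, against 0.129 to 0.218 in the other 8. Many of the fold changes that include it are given without it as well.

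An integrin is a pair of 1 alpha and 1 beta chain, and the pair sets what the receptor binds. The beta-2 chain (Itgb2, CD18) pairs with CD11b (Itgam), with CD11a (Itgal) or with CD11c (Itgax) to form leukocyte receptors for ICAMs, fibrinogen and complement, while the alpha-4 chain (Itga4) pairs with Itgb1 or Itgb7 and binds VCAM-1, MAdCAM-1 and fibronectin. Resting microglia, which settle in the brain before birth, carry little alpha-4 integrin, and Itga4 is used to tell blood-derived cells in the brain from microglia, whereas CD11b is carried by both and was the sorting marker here.

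Promoter sequences are shown for 4 genes: Itgam and Itgb5, which lay higher in the OAT-1746 libraries, Itga4, which lay lower in them, and Itgb1, which barely varied. Of the 10 genes, 6 had a promoter window (250 bases before to 50 after the start) in the RefSeq table of build GRCm38.p6, and Itgal, Itga6, Itgb2 and Itgb3 had none. That of Itga9 (250 bases at chr9:118711442-118711691) lies inside the gene and not at the annotated start given below. Each line that follows gives the 250 bases before the start, 5′ to 3′ on the plus strand, and capitals mark GAGGAA, the core of the sequence that the myeloid transcription factor PU.1 binds, or its reverse complement TTCCTC. The regions are chr7:128062390-128062639 for Itgam, chr16:33829415-33829664 for Itgb5, chr2:79255176-79255425 for Itga4 and chr8:128685404-128685653 for Itgb1.
Itgam: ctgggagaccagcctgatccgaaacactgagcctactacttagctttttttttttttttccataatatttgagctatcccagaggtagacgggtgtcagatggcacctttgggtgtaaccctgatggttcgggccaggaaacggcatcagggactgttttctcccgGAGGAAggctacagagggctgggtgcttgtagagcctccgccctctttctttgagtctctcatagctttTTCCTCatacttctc
Itgb5: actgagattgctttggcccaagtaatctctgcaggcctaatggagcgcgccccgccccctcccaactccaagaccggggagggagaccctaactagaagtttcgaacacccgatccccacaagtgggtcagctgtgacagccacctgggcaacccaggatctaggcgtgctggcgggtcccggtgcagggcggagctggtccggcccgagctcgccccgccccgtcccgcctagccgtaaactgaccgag
Itga4: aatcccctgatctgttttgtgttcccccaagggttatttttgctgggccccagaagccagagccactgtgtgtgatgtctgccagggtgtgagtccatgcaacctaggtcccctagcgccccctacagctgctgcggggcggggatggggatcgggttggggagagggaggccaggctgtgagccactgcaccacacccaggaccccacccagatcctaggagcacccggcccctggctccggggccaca
Itgb1: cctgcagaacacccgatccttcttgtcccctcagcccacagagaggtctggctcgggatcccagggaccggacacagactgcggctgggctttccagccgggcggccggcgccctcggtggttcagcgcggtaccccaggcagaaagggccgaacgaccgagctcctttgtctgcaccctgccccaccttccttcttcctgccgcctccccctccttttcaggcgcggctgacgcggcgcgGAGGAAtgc
In Itgam the printed stretch holds GAGGAA 84 bases before the start and its reverse complement 15 bases before it. In Itgb1 it lies 9 bases before the start, and the printed stretches of Itgb5 and Itga4 hold none. Over the whole windows on both strands, 3 of the 6 genes held the PU.1 core (Itgam, Itgb1 and Itgb7), as did 28.3% of all 32851 promoter windows in the table. The letters GGGCGG, the core of an SP1 site, whose matches overlapped no match of GAGGAA in these genes, were in 4 of the 6 (Itgam, Itga4, Itgb1 and Itgb5) and in 35.7% of all windows. A match describes the letters only.

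Levels of different genes are compared as counts per 1000000 (CPM, scaled by TMM) per kilobase of exon (CPM per kb), averaged over the 9 libraries. The vitronectin receptor chain Itgb5 was the most abundant of the 10 at 505 CPM per kb, followed by Itgb2 at 315 and Itgb1, the common partner of many alpha chains, at 100.3. Itgal stood at 70.5 CPM per kb, Itgb7 at 48.3 and the laminin receptor chain Itga6 at 39.7. Itga9 (20.3 CPM per kb), Itgb3 (10.1) and Itga4 (7.87) were the lowest of the 10. The order differs between groups: with OAT-1746 Itga6 was at 51.6, above Itgal at 33.7 and Itgb7 at 26.2 CPM per kb, and in CTR Itga4 stood above Itgb3, at 8.19. For Itgam the value of 70.4 CPM per kb cannot be set in this order, because the annotated gene Gm49368 runs over it on the same strand and shares 3450 of its 5024 exon bases. Gm49368 itself had 0 to 7 counts per library, reads that fit both genes may have been left out by the counting program, and the level of Itgam may therefore be understated. If only the 1574 bases of its own are taken as countable, Itgam stood at 225 CPM per kb. Differences in Itgam between libraries compare the same bases, and the other 9 genes share no exon base with another gene on their strand.

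The genes also differed in how much they varied over the 9 libraries. Itgal spanned 9.56-fold from its lowest to its highest library, Itgb7 5.52-fold and Itga4 5.46-fold, and for all 3 the lowest library was OAT-1746 replicate 2. The span was 2.64-fold for Itgb3, 2.03-fold for Itga6, 1.99-fold for Itga9, 1.89-fold for Itgb5, 1.72-fold for Itgb2 and 1.52-fold for Itgam. Itgb1 was nearly flat, with 1.14-fold between its extremes. The plot of levels by library shows this for each gene.

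**Figure D1:**
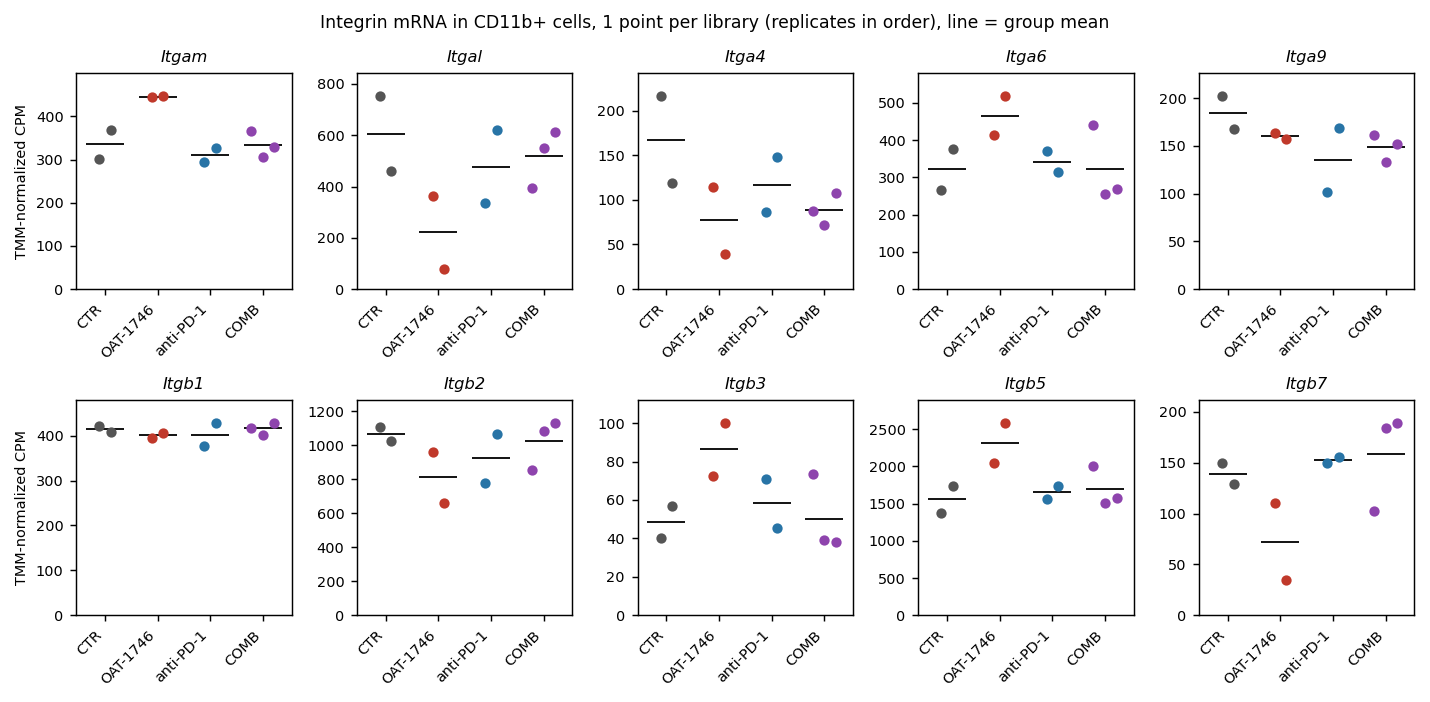
Level of each of the 10 integrin genes in counts per 1000000 (CPM, TMM-scaled, linear axis from 0) in the 9 libraries, with points for libraries and bars for the group mean. Itgal, Itga4 and Itgb7 are lowest in OAT-1746 replicate 2, at 78.6, 39.6 and 34.3 CPM, while Itgb5, Itga6 and Itgb3 are highest there.

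The comparison of OAT-1746 with CTR asks what the arginase inhibitor alone does. In the beta-2 group the sorting marker lay higher and its sister alpha chain lower. Itgam, the alpha chain of CD11b/CD18 (ENSMUSG00000030786, chr7:128062640-128118491), was at 302 and 369.5 CPM in the control libraries, 445 and 446 with OAT-1746, 294 and 327 with anti-PD-1 and 366, 307 and 328 in the COMB libraries. The OAT-1746 libraries are the highest pair of the 9 and lie close together, and the other groups overlap one another. Group means were 336 ± 47.5 CPM (SD, n = 2) in CTR and 446 ± 0.763 CPM (SD, n = 2) with OAT-1746, a log2 fold change of 0.41 (SE 0.17) that did not pass edgeR's quasi-likelihood test (Benjamini-Hochberg adjusted p = 0.138) although both OAT-1746 libraries lay above both controls. It was 0.42 without OAT-1746 replicate 2, and 0.28 without CTR replicate 1.

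Itgal, the CD11a chain of LFA-1, which binds ICAMs on endothelium and antigen-presenting cells (ENSMUSG00000030830, chr7:127296260-127335138), was at 752 and 462 CPM in the control libraries, 363 and 78.6 with OAT-1746, 337 and 619 with anti-PD-1 and 393, 549 and 614 in the COMB libraries. OAT-1746 replicate 2 lies far below every other library, whereas OAT-1746 replicate 1 lies below both controls but above anti-PD-1 replicate 1. Means stood in the order CTR, COMB, anti-PD-1 and OAT-1746, at 607 ± 205 CPM (SD, n = 2), 518 ± 114 CPM (SD, n = 3), 478 ± 199 CPM (SD, n = 2) and 221 ± 201 CPM (SD, n = 2), and the ranges of the first 3 overlap. The log2 fold change with OAT-1746 was -1.46 (SE 0.61), lower in 2 of 2 libraries and short of the threshold in edgeR's quasi-likelihood test (adjusted p = 0.138). 1 library decides its size: it was -0.73 without OAT-1746 replicate 2 and -2.95 without OAT-1746 replicate 1, where it passed. In bulk RNA fewer cells that carry a transcript and less of it per cell cannot be told apart, here or in any result that follows.

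Itgb2, the partner of both (ENSMUSG00000000290, chr10:77530252-77565708), was at 1104 and 1022 CPM in the control libraries, 962 and 660.1 with OAT-1746, 780.0 and 1065 with anti-PD-1 and 856, 1083 and 1132 in the COMB libraries. The OAT-1746 libraries lie below both controls, by little in replicate 1 and clearly in replicate 2, and anti-PD-1 replicate 1 lies between the OAT-1746 libraries. Its log2 fold change was -0.39 (SE 0.24) (edgeR's quasi-likelihood test, adjusted p = 0.285), and -0.13 without OAT-1746 replicate 2 or -0.69 without replicate 1. Per kilobase, the ratio of Itgal to Itgb2 transcripts was 0.316 and 0.21 in the control libraries, 0.176 and 0.0553 with OAT-1746, 0.201 and 0.27 with anti-PD-1 and 0.213, 0.235 and 0.252 in the COMB libraries. Itgb2 transcript thus exceeded Itgal transcript in each library, and the ratio was lowest in OAT-1746 replicate 2.

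Itga4 and Itgb7, the alpha-4 integrin pair that homes leukocytes to VCAM-1 and MAdCAM-1, lay lower with OAT-1746. Itga4 (ENSMUSG00000027009, chr2:79255426-79333123) was at 216 and 118 CPM in the control libraries, 114 and 39.6 with OAT-1746, 86.7 and 148 with anti-PD-1 and 87.4, 71.5 and 108 in the COMB libraries. CTR replicate 1 is the highest library and OAT-1746 replicate 2 the lowest, while CTR replicate 2 and OAT-1746 replicate 1 are almost level. Means were 167 ± 69.1 CPM (SD, n = 2) in CTR, 117 ± 43.1 CPM (SD, n = 2) with anti-PD-1, 88.9 ± 18.2 CPM (SD, n = 3) in COMB and 77.0 ± 52.9 CPM (SD, n = 2) with OAT-1746, with overlapping ranges between each of these neighbours in order. The log2 fold change with OAT-1746 was -1.12 (SE 0.48), lower in 2 of 2 libraries without passing edgeR's quasi-likelihood test (adjusted p = 0.148). It was -0.54 without OAT-1746 replicate 2, -0.61 without CTR replicate 1 and -2.08 without OAT-1746 replicate 1, where it passed.

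Itgb7, which pairs with Itga4 or with Itgae (ENSMUSG00000001281, chr15:102215995-102231944, minus strand), was at 149.7 and 129 CPM in the control libraries, 111 and 34.3 with OAT-1746, 150.0 and 155 with anti-PD-1 and 102, 184 and 189 in the COMB libraries. OAT-1746 replicate 2 again lies far below the rest, OAT-1746 replicate 1 lies just under the controls, and COMB replicate 1 lies below OAT-1746 replicate 1. Its log2 fold change with OAT-1746 was -0.94 (SE 0.47) (edgeR's quasi-likelihood test, adjusted p = 0.193). Without OAT-1746 replicate 2 it was -0.32, and without OAT-1746 replicate 1 it was -2.02 and passed. Per kilobase, the ratio of Itga4 to Itgb7 transcripts was 0.286 and 0.182 in the control libraries, 0.205 and 0.229 with OAT-1746, 0.115 and 0.189 with anti-PD-1 and 0.17, 0.077 and 0.113 in the COMB libraries. Itgb7 transcript exceeded Itga4 transcript in each library, and the ratio in the OAT-1746 libraries lay between those of the controls.

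The other beta partner of Itga4, Itgb1 (ENSMUSG00000025809, chr8:128685654-128733200), was at 421 and 409 CPM in the control libraries, 395 and 406 with OAT-1746, 376 and 427 with anti-PD-1 and 417, 402 and 429 in the COMB libraries. All 9 libraries lie close to one another, and the group means differ by less than the spread within anti-PD-1. Its log2 fold change with OAT-1746 was -0.05 (SE 0.15) (edgeR's quasi-likelihood test, adjusted p = 0.836), or -0.06 without OAT-1746 replicate 2. Its sign flipped to 0.04 when libraries were scaled by their totals only, which moved the median of all genes as well, from 0.01 to 0.10. Itga9, which pairs with Itgb1 and binds tenascin-C and VCAM-1 (ENSMUSG00000039115, chr9:118606690-118901003), was at 202 and 168 CPM in the control libraries, 164 and 157 with OAT-1746, 102 and 169 with anti-PD-1 and 162, 133 and 152 in the COMB libraries. CTR replicate 1 is the highest and anti-PD-1 replicate 1 the lowest, and the OAT-1746 libraries lie just under CTR replicate 2. The log2 fold change of Itga9 with OAT-1746 was -0.21 (SE 0.23) (edgeR's quasi-likelihood test, adjusted p = 0.556), or -0.16 with OAT-1746 replicate 2 left out, -0.06 with CTR replicate 1 left out and -0.34 with CTR replicate 2 left out.

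The matrix receptors Itga6, Itgb3 and Itgb5 lay higher with OAT-1746. Itgb5, which pairs with Itgav to bind vitronectin (ENSMUSG00000022817, chr16:33829665-33949338), was at 1372 and 1741 CPM in the control libraries, 2041 and 2586 with OAT-1746, 1565 and 1742 with anti-PD-1 and 2009.6, 1514 and 1579 in the COMB libraries. The OAT-1746 libraries are the highest pair, and COMB replicate 1 lies just under them. Means were 2313 ± 386 CPM (SD, n = 2) with OAT-1746, 1701 ± 269 CPM (SD, n = 3) in COMB, 1654 ± 125 CPM (SD, n = 2) with anti-PD-1 and 1556 ± 261 CPM (SD, n = 2) in CTR, and the ranges of the last 3 overlap. The log2 fold change was 0.57 (SE 0.22), higher in 2 of 2 libraries and short of the threshold in edgeR's quasi-likelihood test (adjusted p = 0.117). It was 0.40 without OAT-1746 replicate 2, 0.42 without CTR replicate 1 and 0.73 without OAT-1746 replicate 1, where it passed.

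Itgb3, the beta chain of the vitronectin and osteopontin receptor with Itgav (ENSMUSG00000020689, chr11:104608000-104670476), was at 40.0 and 56.7 CPM in the control libraries, 72.5 and 100.2 with OAT-1746, 70.9 and 45.6 with anti-PD-1 and 73.6, 39.1 and 37.9 in the COMB libraries. OAT-1746 replicate 2 is the highest library, and OAT-1746 replicate 1 is level with anti-PD-1 replicate 1 and COMB replicate 1. Its log2 fold change with OAT-1746 was 0.84 (SE 0.36) (edgeR's quasi-likelihood test, adjusted p = 0.147), between 0.60 without OAT-1746 replicate 2 and 1.10 without CTR replicate 2. Itga6, the alpha chain of the laminin receptor with Itgb1 (ENSMUSG00000027111, chr2:71745616-71858416), was at 267 and 377 CPM in the control libraries, 413 and 517 with OAT-1746, 370.5 and 313 with anti-PD-1 and 441, 255 and 270.0 in the COMB libraries. OAT-1746 replicate 2 is again the highest, and COMB replicate 1 lies above OAT-1746 replicate 1. The log2 fold change of Itga6 was 0.53 (SE 0.29) (edgeR's quasi-likelihood test, adjusted p = 0.231), or 0.37 without OAT-1746 replicate 2, 0.31 without CTR replicate 1 and 0.79 without CTR replicate 2.

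Across the 10 genes, 0 passed an adjusted p limit of 0.05 for OAT-1746 against CTR. This held by edgeR's quasi-likelihood test, in DESeq2's Wald test and in limma voom with quality weights, called voom here. Of all 12538 genes tested 0% passed in edgeR and in voom and 15.7% in DESeq2. At an unadjusted p under 0.05 there were 5 of 10 in edgeR, against 32.3% of all genes, 6 of 10 in DESeq2, against 32.4%, and 4 of 10 in voom, against 28.6%. The 5 are Itgam, Itgb3 and Itgb5, which lay higher (3 of 10, against 16.1% of all genes), and Itgal and Itga4, which lay lower (2 of 10, against 16.2%). The OAT-1746 and CTR libraries did not overlap for any of the 10, nor for 62.9% of all genes: 4 lay higher, against 30.8% of all genes, and 6 lay lower, against 32.1%. The median log2 fold change of the 10 was -0.13, beside 0.01 over all genes tested. The counts rest on single libraries. Without OAT-1746 replicate 2, and likewise without CTR replicate 1, 0 of the 10 were under the unadjusted limit in edgeR, against 14.6% and 17.4% of all genes. There were 2 without COMB replicate 2 and 1 without COMB replicate 3, against 29.8% and 27.2%, libraries which enter through the shared spread. Without OAT-1746 replicate 1 a total of 4 (Itgal, Itga4, Itgb7 and Itgb5) passed the adjusted one, as did 3617 or 28.2% of all genes, and without COMB replicate 1, 278 of all genes passed. A group left with 1 library is assumed to vary like the others.

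**Figure D2:**
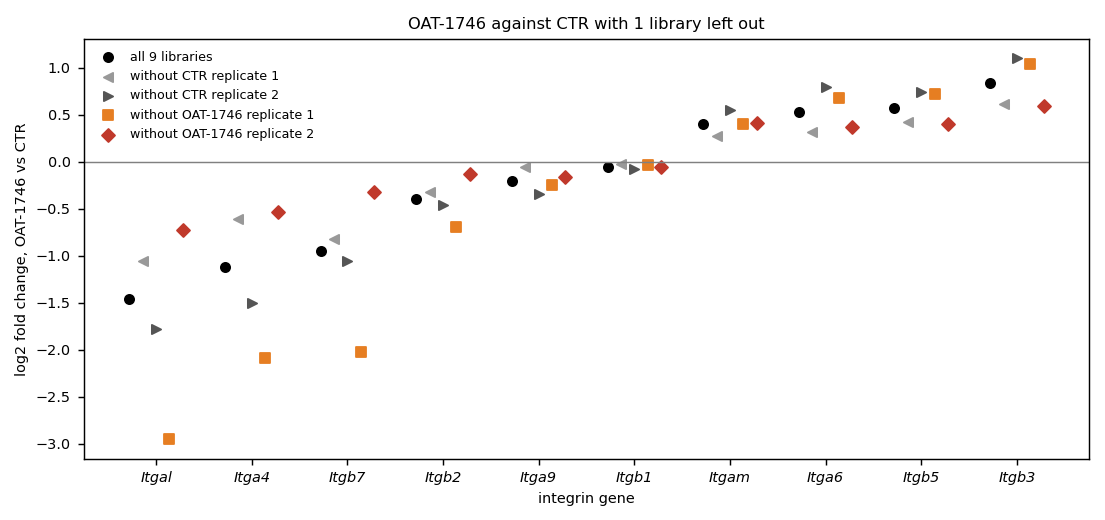
Log2 fold change of each integrin gene, OAT-1746 against CTR, with all 9 libraries and with each CTR or OAT-1746 library left out. Itgal moves from -1.46 to -0.73 without OAT-1746 replicate 2, while Itgam stays between 0.28 and 0.55.

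The genes that lay higher and lower with OAT-1746 also parted within groups that had the same treatment, as the map of centred levels shows. Between the CTR libraries, replicate 2 was lower than replicate 1 in Itgal, Itga4 and Itgb7 and higher in Itgam, Itga6, Itgb3 and Itgb5. Among the COMB libraries, replicate 1 was the lowest in Itgal, Itgb2 and Itgb7 and the highest in Itgam, Itga6, Itgb3 and Itgb5. Centred log2 values, the difference of a library from the gene's mean over the 9, give the size: Itgal stood at 0.90 in CTR replicate 1 and 0.20 in CTR replicate 2, and Itga6 at -0.39 and 0.11. The anti-PD-1 libraries depart from the pattern in part, since Itgam and Itgb5 were higher in replicate 2, where Itgal was higher too.

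**Figure D3:**
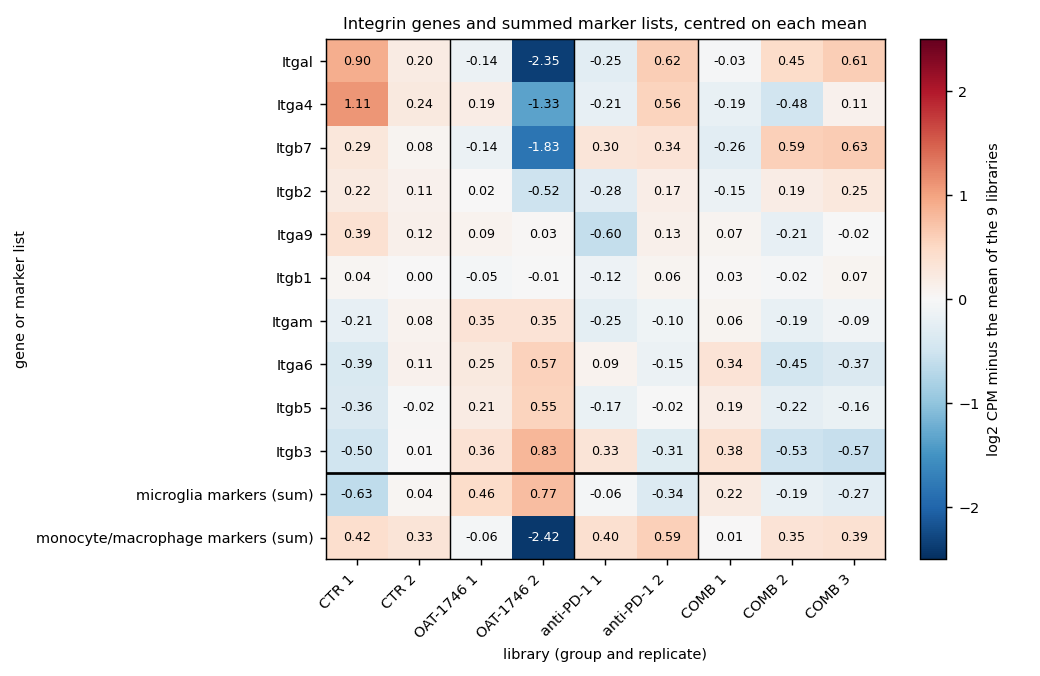
Map of centred log2 CPM (difference from the gene's mean over the 9 libraries) for the 10 integrin genes (one line each) in the 9 libraries (columns, by group). Itgal, Itga4 and Itgb7 are lowest in OAT-1746 replicate 2 (-2.35, -1.33 and -1.83), where Itgb3 stands at 0.83, and Itgb1 is near 0 in each library.

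Marker genes of the cell types that a CD11b+ sort can hold varied along with these genes. The 12 microglia markers summed to 14953 and 23871 CPM in the control libraries, 31763 and 39581 with OAT-1746, 22265 and 18286 with anti-PD-1 and 27051, 20251 and 19216 in the COMB libraries. The OAT-1746 libraries have the highest sums and CTR replicate 1 the lowest. The 12 monocyte and macrophage markers, of which Tgfbi was the most abundant by CPM, summed to 13742 and 12967 CPM in the control libraries, 9893 and 1924 with OAT-1746, 13577 and 15472 with anti-PD-1 and 10401, 13097 and 13472 in the COMB libraries. OAT-1746 replicate 2 stands far below the other 8 libraries, and OAT-1746 replicate 1 is the next lowest. In each of the 4 groups, the library with the highest microglia sum was also the highest in Itga6 and in Itgb3, and the lowest in Itgal, Itgb2 and Itgb7. Itgam and Itgb5 were the highest there in 3 of the 4 groups, and Itga4 and Itga9 were each the lowest there in 3. A share of all genes with such a pattern is not given here. With OAT-1746 all 12 microglia markers lay higher at an unadjusted p under 0.05 (median log2 fold change 0.95), against 16.1% of all genes, and 0 of 12 passed the adjusted limit in edgeR's quasi-likelihood test or in voom, while 10 did in DESeq2, against 15.7%. Without OAT-1746 replicate 2 there were 8 of 12 under the unadjusted limit (all genes higher 8.3%), without CTR replicate 1 there were 3 (10%), and without OAT-1746 replicate 1 there were 9 past the adjusted one (all genes 28.2%). Of the 12 monocyte and macrophage markers 0 lay higher and 3 lay lower at that unadjusted limit (median -0.77), the latter against 16.2% of all genes, and 0 passed the adjusted one in edgeR or voom, against 2 in DESeq2, where 15.7% of all genes did. In voom 5 of these 12 lay lower, against 15% of all genes, with a median of -1.27. Their median was -0.03 without OAT-1746 replicate 2, with 1 higher and 2 lower at the unadjusted limit, against 8.3% and 6.33% of all genes. All 12 passed the adjusted limit without OAT-1746 replicate 1, against 28.2%, and 0 were under the unadjusted one without CTR replicate 1 or 2, where 7.42% and 11.3% of all genes lay lower. In COMB against OAT-1746, 0 of the 12 microglia markers lay higher and 11 lay lower at the unadjusted limit (median -0.73), against 18.8% of all genes lower, with 3 past the adjusted one in edgeR, 7 in DESeq2 and 7 in voom, against 15.8%, 24.4% and 22.4%. Those lower numbered 4, 6 and 4 without OAT-1746 replicate 2 (median -0.57), COMB replicate 2 or COMB replicate 3, against 9.43%, 13.2% and 12.3% of all genes, with 0 past the adjusted limit, as was so without either anti-PD-1 library. The count past it was 1 and 4 without CTR replicates 1 and 2, 7 without OAT-1746 replicate 1 and 9 without COMB replicate 1, against 5.68%, 6.28%, 31.4% and 23.4% of all genes. Of the monocyte and macrophage markers 2 lay higher and 0 lower in COMB than with OAT-1746 (median 0.69), against 18.3% and 18.8% of all genes, with 0 past the adjusted limit in edgeR, 2 in DESeq2 and 4 in voom, where 15.8%, 24.4% and 22.4% of all genes passed. In voom 10 of the 12 lay higher at the unadjusted limit, against 19.5% of all genes, with a median of 1.38. The edgeR median was 0.07 without OAT-1746 replicate 2 and 2.51 without OAT-1746 replicate 1, where all 12 passed, against 31.4% of all genes. The part of cell composition in the integrin results was not tested.

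**Figure D4:**
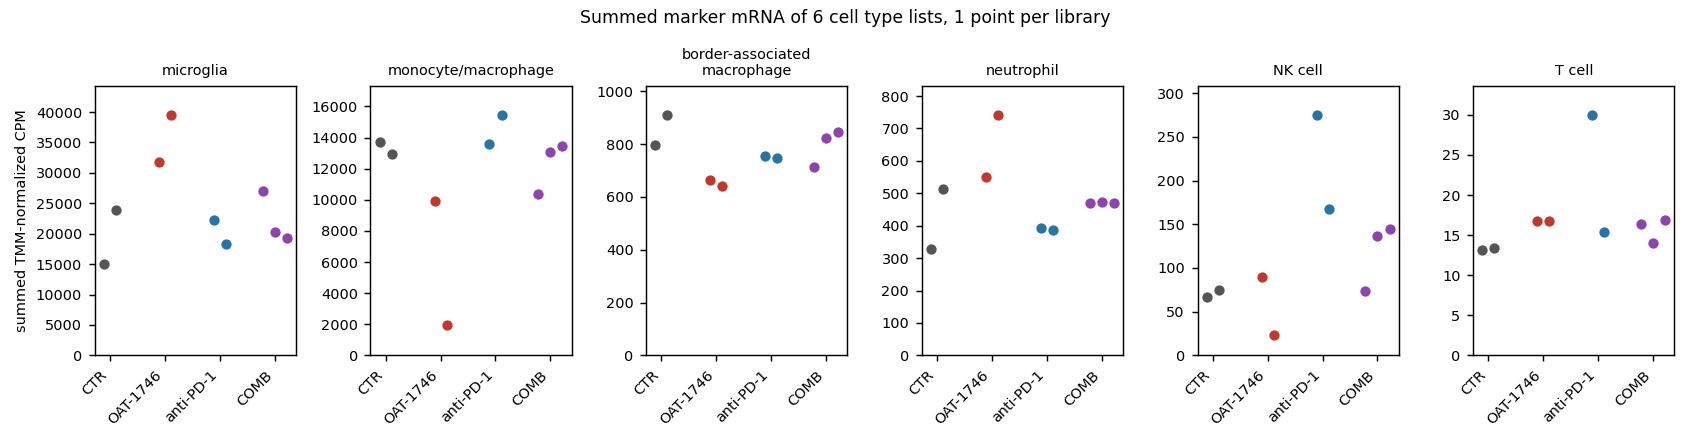
Summed level of marker genes of cell types (CPM, linear axes from 0) in each of the 9 libraries. The microglia sum is highest in the OAT-1746 libraries and the monocyte and macrophage sum is lowest in OAT-1746 replicate 2, at 1924 CPM.

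Other marker lists were lower in sum. The 8 border-associated macrophage markers (F13a1 the most abundant by CPM) summed to 641 to 911 CPM, lowest in the OAT-1746 libraries, and the 11 neutrophil markers (Csf3r) to 329 to 743 CPM, highest in them. The former list split for OAT-1746 against CTR, with Mrc1 and Cd163 higher and Ms4a7 and F13a1 lower at an unadjusted p under 0.05 in edgeR. These are 2 and 2 of 8, against 16.1% and 16.2% of all genes. Csf3r made up 249.5 of the 328.9 CPM of neutrophil markers in CTR replicate 1 and 474.7 of 742.8 in OAT-1746 replicate 2. The 10 NK cell markers (Klrk1) summed to 66.5 and 75.2 CPM in the control libraries, 89.6 and 23.2 with OAT-1746, 275 and 168 with anti-PD-1 and 73.4, 136 and 145 in the COMB libraries. NK cell markers were thus highest with anti-PD-1 and lowest in OAT-1746 replicate 2. The 8 dendritic cell markers (Ccr7), which include the integrin chain Itgae, summed to 66.2 to 143 CPM. The 9 T cell markers found of 10 listed (Cd4) summed to 13.2 to 30.0 CPM, the 6 B cell markers (Cd79b) to 10.5 to 25.8 CPM and the 6 platelet markers (Gp9), with Gp1ba at 0 in each library, to 4.26 to 15.5 CPM. Markers of brain cells that do not carry CD11b were low as well: 6 endothelial markers (Flt1) summed to 93.2 to 173 CPM and 5 astrocyte markers (Aldoc) to 61.9 to 119.9 CPM. For OAT-1746 against CTR, median log2 fold changes of these lists were 0.14 for border-associated macrophages, 0.76 for neutrophils, -0.68 for dendritic cells, -0.01 for NK cells, 0.29 for T cells, 0.45 for endothelial cells and 0.29 for astrocytes, and the B cell and platelet lists had 3 and 2 genes past the filter. Single libraries moved each of these: without OAT-1746 replicate 2 they came, in that order, to 0.05, 0.33, -0.46, 0.60, 0.74, 0.22 and 0.41, and without OAT-1746 replicate 1 to 0.13, 1.09, -1.27, -0.98, 0.21, 0.72 and 0.18. They were -0.19, 0.32, -1.02, 0.30, 0.36, 0.62 and -0.06 without CTR replicate 1 and 0.36, 1.44, -0.35, 0.08, 0.56, 0.14 and 0.83 without CTR replicate 2, and that of T cells was 1.01 without COMB replicate 1.

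Anti-PD-1 against CTR asks what the antibody alone does, and 9 of the 10 integrin genes overlapped between these groups. Itgb7 is the one that did not, with both anti-PD-1 libraries above both controls by a small margin. That is 1 of 10 higher, against 20.6% of all genes, and 0 of 10 lower, against 16.9%. Log2 fold changes ran from -0.51 (SE 0.48) for Itga4 to 0.27 (SE 0.36) for Itgb3, and Itga9 had -0.45 (SE 0.23). Anti-PD-1 replicate 1 was the lowest of the 9 libraries for Itga9 and for Itgam, whereas replicate 2 lay within the controls for both. By edgeR's quasi-likelihood test 0 of 10 passed the adjusted limit of 0.05, as did 0% of all genes, and 0 of 10 were under an unadjusted 0.05, against 5.12% of all genes. DESeq2 and voom gave 0 and 0 of 10 by both limits. Of all genes 0.112% and 0% passed the adjusted one there, and 4.96% and 6.52% the unadjusted one. For Itga4 the value was -0.02 without CTR replicate 1, -0.89 without CTR replicate 2, -0.18 without anti-PD-1 replicate 1 and -0.95 without anti-PD-1 replicate 2. Itgb3 turned to -0.08 without anti-PD-1 replicate 1, came to 0.04 with CTR replicate 1 left out and 0.53 with CTR replicate 2 left out, and stood at 0.55 without anti-PD-1 replicate 2. Itga9 stood at -0.13 without anti-PD-1 replicate 1 and -0.87 without anti-PD-1 replicate 2. Of the 10 NK cell markers 8 lay higher with anti-PD-1 at the unadjusted limit (median 2.32), against 3.18% of all genes. Among these markers 0 lay lower and 0 passed the adjusted limit, and their median was 1.78 without anti-PD-1 replicate 1. The monocyte and macrophage median was 0.57, or 0.32 without CTR replicate 1. The part of these markers in the integrin values was not tested.

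COMB against CTR asks what both agents together do, and it shares its controls with the comparisons above. Itga4 and Itga9, chains for VCAM-1, lay lower in each of the 3 COMB libraries than in both controls, and the other 8 genes overlapped. That is 2 of 10 lower, against 15.8% of all genes, and 0 of 10 higher, against 12.1%. Itga4 had a log2 fold change of -0.91 (SE 0.43) (edgeR's quasi-likelihood test, adjusted p = 0.765), the largest in size of the 10, and the highest value was that of Itgb7, 0.19 (SE 0.43). Of the 10 genes 0 passed the adjusted limit of 0.05 by edgeR's quasi-likelihood test, as did 0% of all genes, and 0 were under an unadjusted 0.05, against 6.58% of all genes. DESeq2 called 0 and had 1 (Itga4) under the unadjusted limit, against 0.279% and 6.28% of all genes. In voom there were 0 by both limits, against 0.016% and 14.9% of all genes. Leaving out CTR replicate 1 brought Itga4 to -0.39, and leaving out CTR replicate 2 brought it to -1.29. Fits without a CTR or an OAT-1746 library held a single library in that group. Counts of genes are not given here for those fits. Itgb7 stood between 0.04 without COMB replicate 3 and 0.40 without COMB replicate 1. It was 0.07 without COMB replicate 2, 0.32 without CTR replicate 1 and 0.08 without CTR replicate 2. Of the 5 astrocyte markers 4 lay higher in COMB than in CTR at the unadjusted limit (median 1.15), against 3.21% of all genes. The other, Gfap, was at 3.71, 4.29 and 2.84 CPM in the COMB libraries, below 5.17 and 6.12 in the controls. Of the 10 NK cell markers 4 lay higher at that limit (median 0.84, or 1.32 without CTR replicate 1). In both lists 0 lay lower at that limit and 0 passed the adjusted one. Their part in the integrin values was not tested.

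COMB against anti-PD-1 asks what the inhibitor adds to the antibody. For each of the 10 genes the libraries of these groups overlapped, so 0 lay higher, against 10% of all genes, and 0 lay lower, against 16.4%. Log2 fold changes ran from -0.40 (SE 0.43) for Itga4 to 0.15 (SE 0.22) for Itgb2. By edgeR's quasi-likelihood test 0 of 10 passed the adjusted limit, as did 0% of all genes. At an unadjusted 0.05 there were 0, against 7.23% of all genes. DESeq2 and voom had 0 of 10 by both limits. Of all genes 0.375% and 0.279% passed the adjusted one there, and 6.74% and 15.9% the unadjusted one. Signs rest on 1 anti-PD-1 library each: Itga4 was at 0.04 without anti-PD-1 replicate 2 and -0.74 without replicate 1, and Itgb2 at -0.06 without anti-PD-1 replicate 1 and 0.40 without replicate 2. Itga4 stood at -0.26 without COMB replicate 2 and Itgb2 at 0.27 without COMB replicate 1. Fits without an anti-PD-1 library held a single library in that group and are given here by fold change only.

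COMB against OAT-1746 asks what the antibody adds to the inhibitor, and it shares its OAT-1746 libraries with OAT-1746 against CTR. A gene high or low in those libraries is thereby drawn to opposite signs in these comparisons. By group mean, Itgam, Itga6, Itgb3 and Itgb5, which lay high with OAT-1746, lay lower in COMB, and Itgal, Itga4, Itgb2 and Itgb7, which lay low, lay higher, though Itga4 turned from 0.21 to -0.35 without OAT-1746 replicate 2. Itga9, which lay slightly low with OAT-1746, lay lower still in COMB, at -0.11 (SE 0.21). Itgam and Itgb5 were lower in each of the 3 COMB libraries than in both OAT-1746 libraries (2 of 10, against 28.9% of all genes), and Itgal was higher in each (1 of 10, against 25%). The log2 fold change of Itgam was -0.42 (SE 0.15) (edgeR's quasi-likelihood test, adjusted p = 0.0863) and that of Itgb7 was 1.13 (SE 0.44) (adjusted p = 0.0987), though COMB replicate 1 overlapped with OAT-1746 in Itgb7. Itgal had 1.23 (SE 0.57), Itgb3 -0.78 (SE 0.32), Itga6 -0.53 (SE 0.26) and Itgb5 -0.44 (SE 0.20). Of the 10 genes 0 passed the adjusted limit of 0.05 by edgeR's quasi-likelihood test, against 15.8% of all genes, while DESeq2 called 1 (Itgb7), against 24.4% of all genes, and voom 3 (Itgal, Itgb3 and Itgb7), against 22.4%. At an unadjusted 0.05 edgeR had 3 of 10, against 37.1% of all genes, DESeq2 had 5, against 36.9%, and voom 6, against 38.9%. The 3 in edgeR were 1 higher (Itgb7, against 18.3% of all genes) and 2 lower (Itgam and Itgb3, against 18.8%). Without OAT-1746 replicate 2 the values came to 0.52 for Itgal, 0.53 for Itgb7, -0.51 for Itgb3, -0.25 for Itgb5, -0.34 for Itga6 and -0.40 for Itgam, and 0 of 10 were under the unadjusted limit, as was so without COMB replicate 2 and without COMB replicate 3, against 19.4%, 25% and 25% of all genes. Without OAT-1746 replicate 1, Itgal at 2.73 and Itgb7 at 2.21 passed the adjusted limit (2 of 10, against 31.4% of all genes), and without COMB replicate 1, Itgb3 at -1.19 and Itga6 at -0.86 did (2 of 10, against 23.4%). At the unadjusted limit there were 6 of 10 without OAT-1746 replicate 1, against 43.8% of all genes, and 5 without COMB replicate 1, against 39.9%. In the same comparison 11 of the 12 microglia markers lay lower at the unadjusted limit, and their part in the integrin values was not tested.

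**Figure D5:**
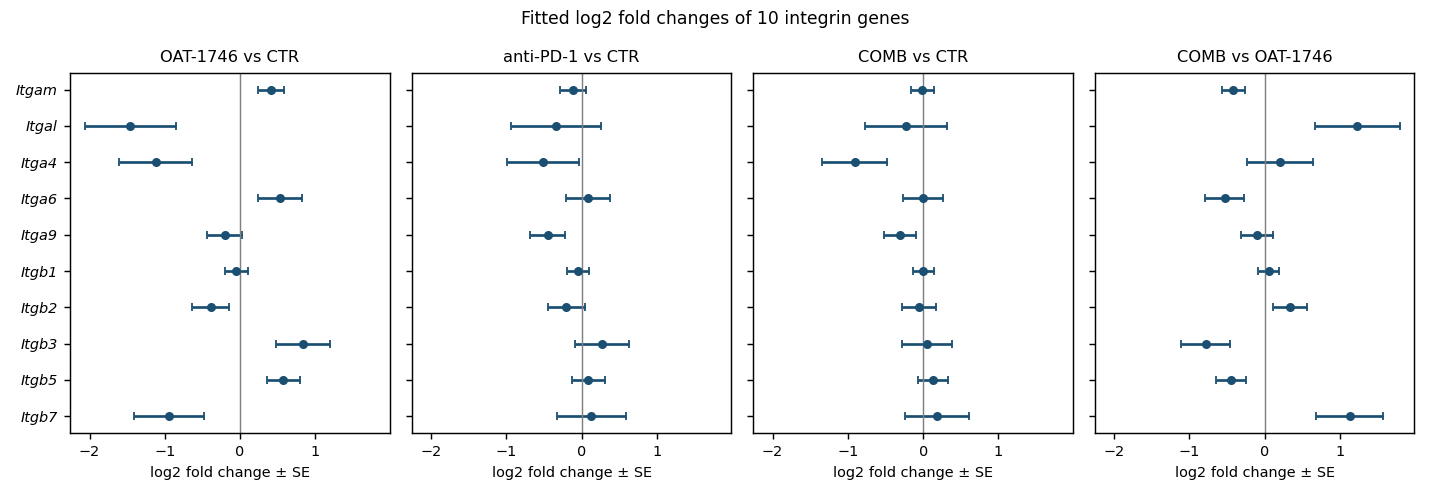
Log2 fold changes of the 10 integrin genes for each treated group against CTR and for COMB against OAT-1746, with bars of ± SE from edgeR. For OAT-1746 against CTR they run from -1.46 (Itgal) to 0.84 (Itgb3), and for COMB against OAT-1746 from -0.78 (Itgb3) to 1.23 (Itgal).

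The interaction asks whether the difference with OAT-1746 depends on the antibody, as the log2 fold change of COMB over anti-PD-1 minus that of OAT-1746 over CTR. It was 1.57 (SE 0.82) for Itgal, 1.00 (SE 0.63) for Itgb7 and -1.05 (SE 0.49) for Itgb3, the last with an adjusted p of 0.205 in edgeR's quasi-likelihood test. A positive value means that the difference between OAT-1746 and CTR lay below the difference between COMB and anti-PD-1. Of the 10 genes 0 passed the adjusted limit in edgeR's quasi-likelihood test, DESeq2 or voom, against 0.359% of all genes in edgeR, 8.4% in DESeq2 and 3.41% in voom. At an unadjusted 0.05 there were 0 in edgeR, against 26.2% of all genes, 1 in DESeq2 (Itgal), against 26.4%, and 3 in voom, against 31.4%. Without OAT-1746 replicate 1 the interaction of Itgal was 3.07 and that of Itgb7 2.08, and 3 of the 10 passed the adjusted limit, against 21.3% of all genes, whereas without OAT-1746 replicate 2 they were 0.87 and 0.40. For Itgb3 the interaction was -0.70 without anti-PD-1 replicate 1. The 12 microglia markers had a median interaction of -0.87, from -0.55 without CTR replicate 1 to -1.22 without CTR replicate 2, with 0 above 0. At the unadjusted limit 4 of them lay lower in edgeR, 7 in DESeq2 and 9 in voom. The shares of all genes were 14.4%, 13% and 15.9%. The part of these markers in the integrin values was not tested. The number of the 10 under the unadjusted limit was 1 without CTR replicate 2, 2 without anti-PD-1 replicate 2, 3 without COMB replicate 1 and 5 without OAT-1746 replicate 1, against 21.1%, 20.5%, 31.1% and 37% of all genes.

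Other integrin chains were measured beside the 10. Of 16 listed, 12 passed the low-count filter, and Itga10, Itga11, Itgad and Itgb6 did not. Itgax, the CD11c chain that pairs with Itgb2, was the most abundant of them per kilobase (140.5 CPM per kb), followed by Itga5, the fibronectin receptor chain (23.3), and Itgav, the partner of Itgb3 and Itgb5 (11.98). Itgax was at 1431 and 667 CPM in the control libraries, 404 and 96.4 with OAT-1746, 357 and 1004 with anti-PD-1 and 596, 732 and 785 in the COMB libraries. Like Itgal it was highest in CTR replicate 1 and lowest in OAT-1746 replicate 2, with both OAT-1746 libraries below both controls. Itgav was at 138 and 144 CPM in the control libraries, 148 and 128 with OAT-1746, 112 and 122 with anti-PD-1 and 142, 112 and 112 in the COMB libraries, and its OAT-1746 libraries lie on either side of the controls. For OAT-1746 against CTR, 0 of 12 passed the adjusted limit in edgeR's quasi-likelihood test or voom, against 1 in DESeq2 (15.7% of all genes), and 0 were higher and 4 lower at an unadjusted 0.05, against 16.1% and 16.2% of all genes: Itgax at -2.07 (SE 0.68), Itgae, the partner of Itgb7, at -1.19 (SE 0.39), Itga5 at -0.78 (SE 0.33), and Itga8, chosen after its values were seen, at -1.34 (SE 0.51). Left without OAT-1746 replicate 2 they came to -1.36, -0.73, -0.29 and -1.003, and without OAT-1746 replicate 1 to -3.45, -1.83, -1.50 and -1.78. Without CTR replicate 2, Itgb8 moved from 0.96 to 3.06 and Itga2b from -0.90 to 4.73. Both were chosen after their values were seen and had at most 52 and 14 counts in a library. At that limit 1 was lower without OAT-1746 replicate 2 and 2 without CTR replicate 1, against 6.33% and 7.42% of all genes, and without OAT-1746 replicate 1 a total of 4 of the 12 passed the adjusted one, against 28.2%. Their median log2 fold change was -0.14 with OAT-1746, 0.37 with anti-PD-1 and 0.37 in COMB, each against CTR. The first was -0.05 without CTR replicate 1, -0.29 without OAT-1746 replicate 2 and -0.85 without OAT-1746 replicate 1. For anti-PD-1 it was 0.11 and 0.19 without anti-PD-1 replicates 1 and 2 and 0.21 without CTR replicate 2, and for COMB 0.21 and 0.02 without CTR replicates 1 and 2 and 0.10 without COMB replicate 1. Itga8 was as low with anti-PD-1, at -1.28 (SE 0.51), and in COMB, at -1.42 (SE 0.46), each against CTR, and the former was -0.80 and -2.08 without anti-PD-1 replicates 1 and 2. It had only 10 to 61 counts in a library, and Itga2, described below, had 2 to 56. At the unadjusted limit 1 of 12 lay higher (Itga2) and 1 lower (Itga8) with anti-PD-1, against 5.12% of all genes, and 0 higher and 1 lower (Itga8) in COMB, against 6.58%, with 0 past the adjusted one in edgeR, DESeq2 or voom. Of these unadjusted counts some fell with CTR replicate 1 or anti-PD-1 replicate 1 left out. Itga2, the CD49b chain of NK cells and platelets, chosen after its values were seen, was at 0.541 and 0.235 CPM in the control libraries, 0.757 and 0.114 with OAT-1746, 3.90 and 1.47 with anti-PD-1 and 0.964, 0.528 and 1.13 in the COMB libraries, higher in both anti-PD-1 libraries than in the other 7. The sum of NK cell markers was highest in those libraries too, and its part in the level of Itga2 was not tested. In COMB against OAT-1746, Itgax, Itgae and Itga5 were higher at the unadjusted limit, at 1.49 (SE 0.63), 0.98 (SE 0.37) and 0.77 (SE 0.30) (3 of 12, against 18.3% of all genes), and 0 of 12 passed the adjusted one, against 1 in DESeq2 and 2 in voom, where 24.4% and 22.4% of all genes did, and 15.8% in edgeR. Itgax, Itgae and Itga5 came to 0.81, 0.55 and 0.31 without OAT-1746 replicate 2 and to 2.87, 1.63 and 1.49 without OAT-1746 replicate 1. Itgae was 0.63 without COMB replicate 1. Without any 1 of the COMB libraries 1 of the 12 was under the unadjusted limit. Of all genes 39.9%, 25% and 25% were, without COMB replicates 1, 2 and 3.

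Ligands that these receptors bind numbered 31, of which 24 passed the filter. The most abundant per kilobase were F11r, a junction protein that binds the CD11a integrin (258 CPM per kb), Spp1, osteopontin (198), and Tgfb1, whose latent form binds integrins with Itgav (131). Spp1, a ligand of alpha-4, alpha-9 and Itgb3 integrins, was at 411 and 310.1 CPM in the control libraries, 243 and 23.1 with OAT-1746, 817 and 449 with anti-PD-1 and 458, 110.4 and 111 in the COMB libraries. It was lowest in OAT-1746 replicate 2 and highest in anti-PD-1 replicate 1. Fn1, fibronectin, the matrix ligand of alpha-4 integrins, was at 951 and 543 CPM in the control libraries, 381 and 145 with OAT-1746, 454 and 769 with anti-PD-1 and 505, 377 and 582 in the COMB libraries, lowest in OAT-1746 replicate 2 as Itga4 was. With OAT-1746, 0 of 24 passed the adjusted limit in edgeR's quasi-likelihood test or voom, against 6 in DESeq2 (15.7% of all genes), and 2 lay higher and 4 lower at an unadjusted 0.05 (against 16.1% and 16.2% of all genes), among them the alpha-4 ligand Emilin1 at -2.32 (SE 0.59), Cdh1, the E-cadherin that Itgae with Itgb7 binds, at -2.04 (SE 0.61), Fn1 at -1.51 (SE 0.47) and Jam3, a binding partner of CD11b, at 1.38 (SE 0.36). These 4 came to -1.66, -1.22, -0.96 and 1.19 without OAT-1746 replicate 2, where 1 of the 24 lay higher and 5 lower (all genes 8.3% and 6.33%), and to -3.50, -4.03, -2.37 and 1.55 without OAT-1746 replicate 1, where 8 of the 24 passed the adjusted limit, against 28.2% of all genes. With CTR replicate 1 left out those lower at the unadjusted limit numbered 2, against 7.42%. With anti-PD-1, 1 lay lower (Vtn, vitronectin, at -0.82 (SE 0.29), or -1.36 and -0.42 without anti-PD-1 replicates 1 and 2), and in COMB, 1 lay higher (Jam3 at 0.83 (SE 0.33)), each against CTR at the unadjusted limit, where 1.94% and 3.21% of all genes did, with 0 of 24 past the adjusted one in edgeR, DESeq2 or voom. Left without CTR replicate 1, Vtn was at -0.64. Jam3 was at 1.01 without CTR replicate 2 and at 0.58 without COMB replicate 1. The count higher in COMB was 0 without COMB replicate 1 and 2 without COMB replicate 2, against 3.41% and 2.09% of all genes. It and the count lower with anti-PD-1 also moved with other single libraries left out. In COMB against OAT-1746, 1 of 24 rose past the adjusted limit, against 15.8% of all genes that passed, the CD11a ligand Icam2 at 1.17 (SE 0.32) (edgeR's quasi-likelihood test, adjusted p = 0.0432), chosen after its values were seen. DESeq2 and voom called 4 of 24 each, against 24.4% and 22.4% of all genes. With 1 library left out at a time Icam2 ran from 0.71 (without OAT-1746 replicate 2) to 1.88 (without OAT-1746 replicate 1) and passed in 2 of the 9 fits, those without OAT-1746 replicate 1 and without COMB replicate 1.

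Activators and adaptors, the proteins that switch integrins on from inside the cell or pass on their signal, numbered 43, of which 41 passed the filter. Tyrobp, an adaptor that signals downstream of several receptors, was the most abundant per kilobase (1300.4 CPM per kb), and the small GTPase Rap1b stood at 210.2. With OAT-1746, 0 of 41 passed the adjusted limit in edgeR's quasi-likelihood test or voom, against 4 in DESeq2 (15.7% of all genes), and 5 lay higher and 7 lower at an unadjusted 0.05, against 16.1% and 16.2% of all genes. Without OAT-1746 replicate 2 these were 1 and 2, without CTR replicate 1 they were 3 and 0, and without CTR replicate 2 they were 3 and 3, where all genes had 8.3% and 6.33%, 10% and 7.42%, 13.5% and 11.3%, in that order. Left without OAT-1746 replicate 1 they were 5 and 13, against 18.1% and 23.4% of all genes, with 15 of the 41 past the adjusted limit, against 28.2%. Tln2, a talin that binds beta chain tails, had 1.29 (SE 0.29) and Tns1, a tensin, 1.00 (SE 0.30), while the kinase Fgr had -1.22 (SE 0.51) and Cyth1, which binds the Itgb2 tail, -1.12 (SE 0.34). With OAT-1746 replicate 2 left out these were 0.96, 0.56, -0.50 and -0.66, and with OAT-1746 replicate 1 left out 1.57, 1.33, -2.67 and -1.78. In COMB against CTR, 2 lay lower, the adaptor Fyb at -0.75 (SE 0.25) and Apbb1ip, the adaptor that links Rap1 to talin, at -0.41 (SE 0.16). Of all genes 3.37% lay lower there with all libraries. Those lower of the 41 were 4, 0 and 1 without COMB replicates 1, 2 and 3, against 4.49%, 1.65% and 1.52% of all genes. Their count also moved with a CTR or an OAT-1746 library left out. With anti-PD-1 against CTR 1 of 41 lay higher, against 3.18% of all genes, a count that moved with single libraries left out. These were counted at the unadjusted limit, and in both comparisons 0 of 41 passed the adjusted one in edgeR, DESeq2 or voom. In COMB against OAT-1746, 6 lay higher and 9 lower at the unadjusted limit, against 18.3% and 18.8% of all genes, and DESeq2 and voom called 10 of 41 each, against 24.4% and 22.4%. Those higher were 2 without COMB replicate 2 and 2 without COMB replicate 3, against 11.8% and 12.7% of all genes. Those lower were 6 without COMB replicate 2, against 13.2%. Both counts also moved with either OAT-1746 library left out. In edgeR 5 of 41 fell past the adjusted limit and 0 rose, against 15.8% of all genes that passed: Apbb1ip at -0.83 (SE 0.16), Tln2 at -1.15 (SE 0.26), Tns1 at -1.09 (SE 0.27), Elmo1 at -0.77 (SE 0.20) and Tns3 at -0.68 (SE 0.18), the last of which, like Elmo1, was chosen after its values were seen. In that order they came to -0.70, -0.78, -0.63, -0.52 and -0.44 without OAT-1746 replicate 2. With 1 library left out at a time, Apbb1ip passed in 6 of the 9 fits and Tln2 in 5, whereas Tns1, Elmo1 and Tns3 passed in 2 each, and none of the 5 passed without OAT-1746 replicate 2, without COMB replicate 2 or without COMB replicate 3. Of all genes 1979 passed in that comparison, but 27 did without OAT-1746 replicate 2, 14 without COMB replicate 2, 5 without COMB replicate 3, 734 and 808 without CTR replicates 1 and 2, 861 and 927 without anti-PD-1 replicates 1 and 2, 4033 without OAT-1746 replicate 1 and 2923 without COMB replicate 1.

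Genes most like an integrin gene over the 9 libraries were ranked by the root mean square difference of their centred log2 CPM, among genes of at least 20 CPM. For Itgam they were Mbtps1 at 0.0592, Cyfip1 at 0.0693 and Heatr5a at 0.076, against a median of 0.318 over all those genes. For Itga4 they were Abcg3 at 0.24, Sorl1 at 0.24 and Plxnd1 at 0.244, against 0.648. For Itgal, which had the widest log2 range of the 10, they were Atp8b4 at 0.169, Tnfaip2 at 0.169 and Mmp14 at 0.177, against 0.895.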

How the data were processed

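The authors deposited raw counts of read pairs per gene for 9 libraries, made from stranded poly-A RNA with Trimmomatic, STAR on mm10, Picard and HTSeq at a mapping quality of at least 10. Library totals ran from 13048075 to 18796479 counts. Genes were matched by Ensembl identifier to GENCODE M21 (53620 of 53801 genes). Protein-coding genes were kept by edgeR's filterByExpr at a minimum count of 10, which left 12538. Counts were scaled by TMM and fitted with edgeR 4.0.16 (R 4.3.3) as 4 group means over all 9 libraries, with quasi-likelihood tests and Benjamini-Hochberg adjustment over all tested genes. A gene passed at an adjusted p under 0.05. Each treated group was compared with CTR, and COMB with each single agent, beside the interaction. Alternatives were DESeq2 1.42.0, limma 3.58.1 voom with quality weights, other scalings and filters, a replicate block and robust estimation. Others were only the groups compared and leaving out each library. The voom values change the model and add the weights at once, so neither can be credited alone. Lists were other integrin chains, ligands, activators and adaptors, and markers of 12 cell types, 1 of which is not reported here. From each list the text could name the 3 genes with the highest mean CPM per kb and, against CTR, up to 4 of at least 5 CPM under an unadjusted 0.05 with the largest fold change; for likeness, the 3 nearest genes. The members and lists were chosen with earlier results of these data known. Fits were also run on simulated data, and no result of those runs is given or used here. Centred log2 CPM used a prior count of 2, and figures were drawn with matplotlib 3.10.9.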

Additional observations from a re-analysis of the deposited data

How the results depend on the processing

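Groups of 2 libraries and a library that stands apart limit what these tests can show, and the cause was not tested for any shift given here. Values for the main analysis are given first, then those of alternatives. Among all genes, those past the adjusted limit for OAT-1746 against CTR were 0 in the main analysis, 1972 by DESeq2 and 587 without the low-count filter. For anti-PD-1 against CTR 0 became 14 by DESeq2. For COMB against CTR 0 became 35 by DESeq2, 2 without the filter, 2 by voom and 5 with only the groups compared. For COMB against anti-PD-1 0 became 47 by DESeq2, 2 without the filter, 35 by voom and 2 with only the groups compared. For COMB against OAT-1746 1979 became 3062 by DESeq2 and 2808 by voom, which also has quality weights here. It became 2 with the replicate block and 30 with only the groups compared. For the interaction 45 became 1053 by DESeq2, 24 with library size only, 146 without the filter, 18 over all gene types, 0 with the replicate block and 428 by voom.

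Of the 10 integrin genes, 0 passed the adjusted limit in each comparison under these alternatives, except that DESeq2 gave 1 and voom 3 for COMB against OAT-1746. Under an unadjusted 0.05, OAT-1746 against CTR had 5, but 1 with the replicate block, 3 with robust estimation and 1 with only the groups compared, against 21.1%, 32.1% and 22.5% of all genes. COMB against CTR had 0, but 1 by DESeq2, 1 without the filter and 1 with only the groups compared, against 6.28%, 5.49% and 10.1%. COMB against OAT-1746 had 3, but 5 by DESeq2, 0 with the replicate block, 6 by voom and 1 with only the groups compared, against 36.9%, 19.8%, 38.9% and 34%. The interaction had 0, but 1 by DESeq2, 2 without the filter and 3 by voom, against 26.4%, 22.1% and 31.4%. The fold change of Itgb1 for OAT-1746 against CTR reversed to 0.039 with library size only. Library size only also moved the median log2 fold change of all genes, from 0.01 to 0.10 for OAT-1746 against CTR and from -0.02 to -0.11 for the interaction. The labels give no pairing by replicate number, and the replicate block moved the fold of Itgal for OAT-1746 against CTR from -1.46 to -1.53.

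With each library left out in turn, genes past the adjusted limit ran from 0 to 3617 for OAT-1746 against CTR, 5 to 4033 for COMB against OAT-1746, 0 to 52 for COMB against anti-PD-1 and 0 to 2734 for the interaction. Integrin genes past it ran from 0 to 4 for OAT-1746 against CTR, 0 to 2 for COMB against OAT-1746 and 0 to 3 for the interaction. Integrin genes under the unadjusted limit ran from 0 to 6 for OAT-1746 against CTR, 0 to 1 for anti-PD-1 against CTR, 0 to 1 for COMB against CTR, 0 to 1 for COMB against anti-PD-1, 0 to 6 for COMB against OAT-1746 and 0 to 5 for the interaction. Signs changed for each of the 10 genes in at least 1 comparison, mostly at values near 0. Among the larger, log2 fold changes ran from -0.74 to 0.042 for Itga4 and from -0.060 to 0.40 for Itgb2 in COMB against anti-PD-1, and from -0.080 to 0.55 for Itgb3 in anti-PD-1 against CTR, and that of Itga4 in COMB against OAT-1746 went from 0.21 to -0.35 without OAT-1746 replicate 2.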
